A study of Mus musculus with 8 samples.

Results

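Interferon-stimulated genes (ISGs) are genes that cells switch on when an interferon binds its receptor. The 39 ISGs described here were taken by name from a gene table of 46635 loci, and all 39 names were found in it. The list holds 4 transcription factors of the response, 12 antiviral effectors, 5 genes of the oligoadenylate synthetase (OAS) family, 3 genes of the ISG15 system, 3 nucleic acid sensors, 6 interferon-inducible GTPases and 6 others. The libraries are RNA-seq of mouse small-intestinal mesenchyme, that is, of what was left of the gut after EDTA had stripped off the epithelium. There were 4 libraries from wild-type fetuses late in gestation (embryonic day E17.5) and 4 from wild-type pups on postnatal day 14 (P14). The study asked how the gut lengthens between these ages. No group carried a mutation or a treatment other than the EDTA step, RNA came from TRIzol extraction, and libraries were made with a NEBNext Ultra kit. The age label of the fetal libraries reads E17 and the protocol E17.5. The design speaks of 4 mice at each age, but no label ties a library to an animal or says whether tissue was pooled. The p-values therefore measure only the spread between these libraries, which may be technical.

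Interferons are secreted proteins of 3 types. Type I interferons (alpha, beta and others) bind a receptor made of IFNAR1 and IFNAR2, and type III interferons (lambda) bind IFNLR1 with IL10RB. Both act through the kinases JAK1 and TYK2 to assemble the complex ISGF3, which includes STAT2 and IRF9 and binds the interferon-stimulated response element (ISRE) of target promoters. Interferon gamma, the type II form, binds IFNGR1 with IFNGR2 and acts on promoters that hold the gamma-activated site (GAS). In the gut, the epithelium is known as the main responder to lambda interferon, while cells below it respond mostly to type I.

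Each library held between 16660998 and 19496632 reads assigned to genes, and values are FPKM, reads scaled for gene length and library size. Mesenchymal transcripts were abundant: 7 smooth muscle markers summed to 4666 to 5127 FPKM at E17.5 and 2677 to 10413 at P14, and 5 fibroblast markers to 1785 to 1976 and 698 to 1971. P14 replicate 1 stood apart, with the lowest sums of smooth muscle, fibroblast, endothelial and enteric neuron markers among the P14 libraries. The 14 pan-epithelial markers summed to 6057 FPKM there, to 153, 845 and 303 in P14 replicates 2, 3 and 4, and to 37.4 to 59.6 at E17.5. All 14 were highest in P14 replicate 1 and all 14 were higher in every P14 library than in any E17.5 library. The library size in the authors' scaling came to 0.78 of the assigned reads for P14 replicate 1, and to 1.02 to 1.06 of them elsewhere. Results are therefore given with and without this library, and its ratios also in TPM, the same values rescaled to 1 common sum per library.

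The RefSeq promoters (build GRCm38.p6, from 250 bases before to 50 after the start of transcription) held 29 of the 39 genes. An ISRE core, written here as GAAA, any 2 bases, GAAA, or the reverse complement of this, was found in 17 of the 29 genes (58.6%), against 1079 of 27025 genes in the whole promoter table (3.99%). A GAS core, TTC, any 3 bases, GAA, reads alike on both strands and was found in 10 of the 29 genes (34.5%), against 9.55% of all genes. Matches were counted on both strands and may overlap. A match describes the letters of the promoter and does not show that a factor was bound. The 9 windows of 70 bases below lie before the start of transcription, are printed 5′ to 3′ on the gene's own strand, and carry the ISRE matches in capitals. Ifit1, Gbp3, Gbp7 and Irgm1 are shown because they passed the test between the ages. Gbp2 is the gene of the same cluster as Gbp3 that went the other way once P14 replicate 1 was left out. Isg15 and Oas1a are shown as genes that were far higher in P14 replicate 1, and Ifit3 and Ifit3b because their windows are the same in all 70 bases.
Ifit1, chr19:34640764-34640833, plus strand: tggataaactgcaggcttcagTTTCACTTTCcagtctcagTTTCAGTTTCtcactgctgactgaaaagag
Ifit3, chr19:34583360-34583429, plus strand: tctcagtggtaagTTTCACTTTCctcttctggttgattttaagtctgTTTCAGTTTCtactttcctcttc
Ifit3b, chr19:34607756-34607825, plus strand: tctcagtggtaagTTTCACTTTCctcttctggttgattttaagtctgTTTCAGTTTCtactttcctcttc
Isg15, chr4:156200851-156200920, minus strand: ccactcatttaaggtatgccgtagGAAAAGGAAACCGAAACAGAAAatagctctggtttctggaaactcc
Oas1a, chr5:120907526-120907595, minus strand: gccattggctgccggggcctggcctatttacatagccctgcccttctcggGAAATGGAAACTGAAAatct
Gbp2, chr3:142620574-142620643, plus strand: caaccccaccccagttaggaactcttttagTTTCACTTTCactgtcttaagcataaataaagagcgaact
Gbp3, chr3:142559972-142560041, plus strand: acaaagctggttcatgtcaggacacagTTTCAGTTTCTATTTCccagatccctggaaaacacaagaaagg
Gbp7, chr3:142530253-142530322, plus strand: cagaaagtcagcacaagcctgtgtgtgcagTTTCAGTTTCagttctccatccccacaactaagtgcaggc
Irgm1, chr11:48871421-48871490, minus strand: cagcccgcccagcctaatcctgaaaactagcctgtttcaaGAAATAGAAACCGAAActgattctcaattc
Isg15 held 3 overlapping matches in one run, and Ifit1, Ifit3, Ifit3b, Oas1a, Gbp3 and Irgm1 held 2 each. An ISRE match occurred in genes of every behaviour described below. It was present in 1 of the 2 genes with a promoter entry that were called higher at P14 and in 3 of the 5 called lower. It was present in 7 of 13 genes whose P14 replicate 1 value was at least 2 times the mean of P14 replicates 2 to 4, and in 7 of the other 12 tested genes with an entry.

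Between the ages the 39 genes did not move together. With all 8 libraries, 34 of them passed the filter on low values (FPKM of 1 or more in at least 4 libraries) and were tested in limma, with the Benjamini-Hochberg adjustment taken over all 14044 genes tested and a threshold of 0.05. Ifit1, Ifi27 and Ifi35 were called higher at P14, 3 of 34, where 9.72% of all tested genes were called higher. Called lower were 7 of 34, Ifitm1, Oas2, Gbp3, Gbp7, Irgm1, Iigp1 and Ifi44, where 15% of all tested genes were called lower. These shares, 8.82% and 20.6% of the tested members, lie near those of all genes. The median log2 fold change was 0.11 over the tested members and 0.00 over all tested genes. With TPM values the same numbers of members were called, 3 and 7, and the medians became -0.07 and -0.18. Ifit1 passed the filter only through its P14 values and Oas2 only through its E17.5 values. In a bulk library, fewer cells of a type and less RNA per cell cannot be told apart.

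**Figure D1:**
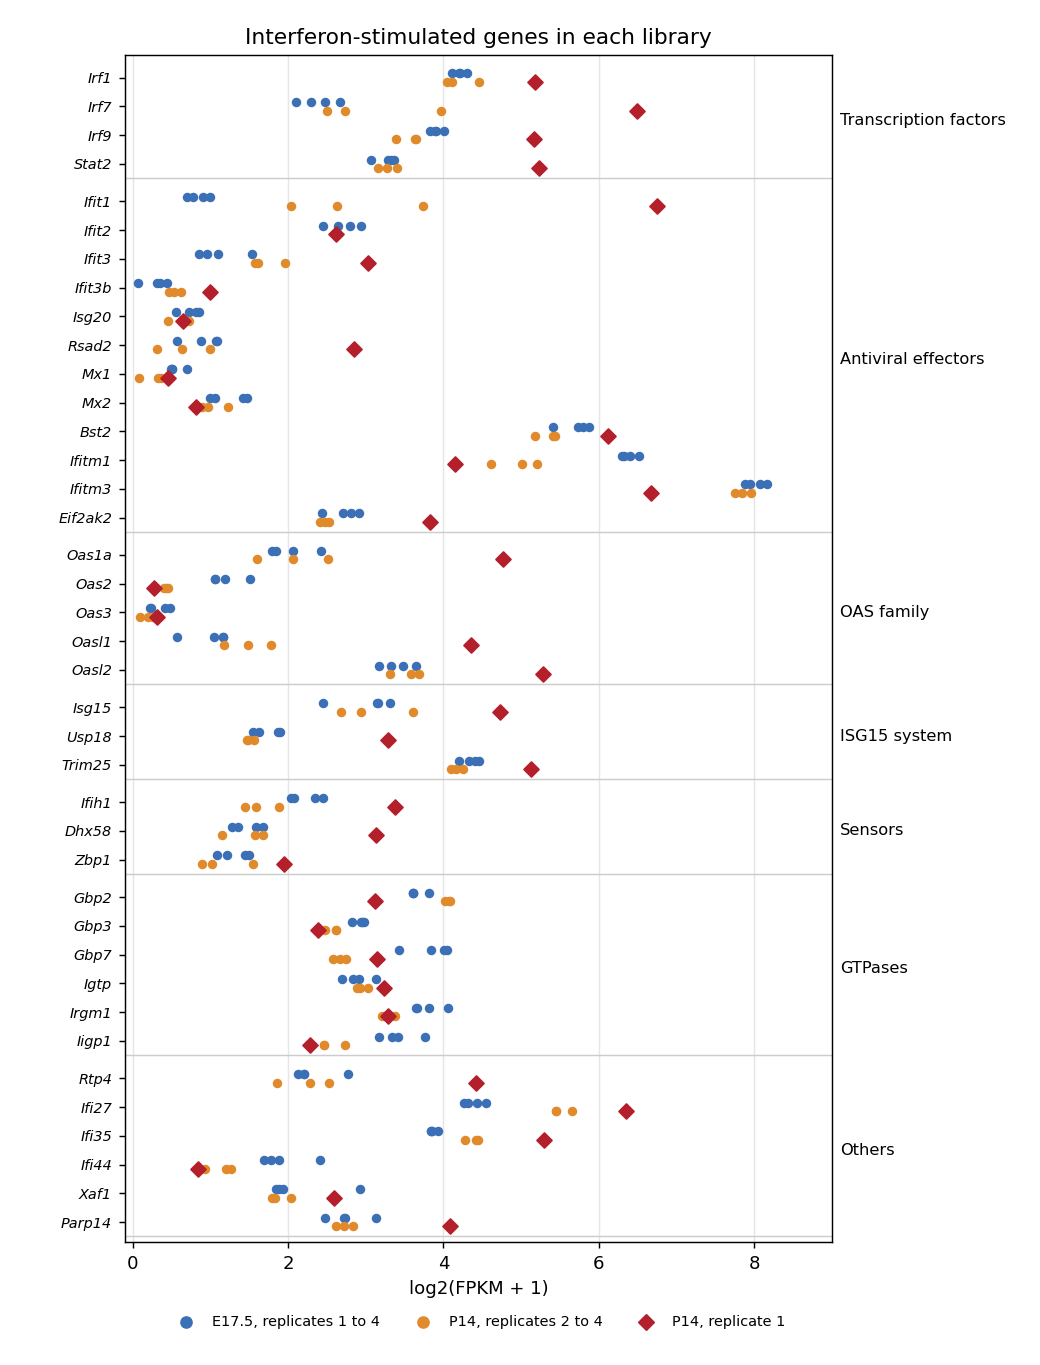
Level of each of the 39 genes in each library, as log2(FPKM + 1), with blue circles for the 4 E17.5 libraries, orange circles for P14 replicates 2 to 4 and red diamonds for P14 replicate 1. The diamond lies right of all other points for Irf7, Ifit1, Oas1a, Oasl1 and Rtp4 and left of them for Ifitm1, Ifitm3, Gbp2 and Gbp3.

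Without P14 replicate 1, all 10 of these genes were called again in the same direction, and 5 more were called. Ifit3 and Gbp2 joined the genes higher at P14 (5 of 34, where 22.6% of all genes were called higher). Irf9, Ifih1 and Bst2 joined those lower at P14 (10 of 34, where 26.9% of all genes were called lower). Only Ifi27 was called higher without E17.5 replicate 1, 2, 3 or 4 and without P14 replicate 3. Ifi27 and Ifit1 were called without P14 replicate 2, and Ifi27 and Ifi35 without P14 replicate 4. The groups did not overlap for 12 tested members. All P14 libraries lay above all E17.5 libraries for Ifit1, Ifit3, Oasl1, Ifi27 and Ifi35 (15.6% of all tested genes did so), and below them for the 7 genes called lower (20.4% of all tested genes).

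**Figure D2:**
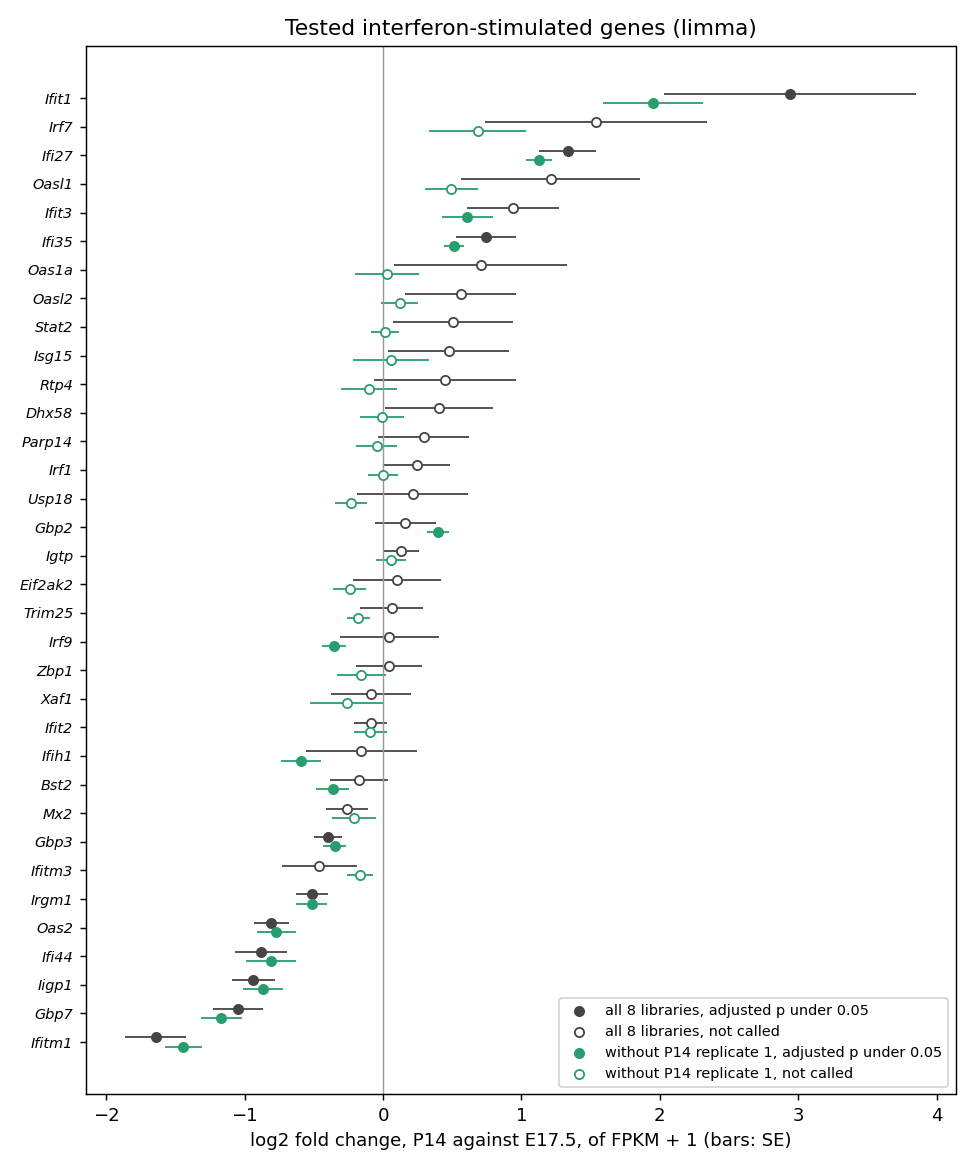
Log2 fold change of FPKM + 1, P14 against E17.5, for the 34 tested genes, in black with all 8 libraries and in green without P14 replicate 1, with bars for the SE and filled circles for an adjusted p under 0.05. Leaving out P14 replicate 1 narrowed the bars of Ifit1, Irf7, Oasl1 and Oas1a and moved their values towards 0.

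None of the 4 transcription factors was called with all libraries in limma, in voom on the recovered reads, or at an unadjusted p under 0.05. Irf7, which drives the production of type I interferon and is itself an ISG, measured 3.91, 4.55, 5.34 and 3.30 FPKM in E17.5 replicates 1 to 4. At P14 it measured 89.3, 4.68, 14.6 and 5.65 FPKM in replicates 1 to 4. One P14 library held most of the Irf7 signal and P14 replicate 2 lay inside the E17.5 range, so the groups overlapped. Its log2 fold change came to 1.54 (SE 0.80, adjusted p = 0.191), and 0.68 (SE 0.35, adjusted p = 0.148) without P14 replicate 1. Stat2, the partner of IRF9 in ISGF3, was 7.41 to 9.31 FPKM at E17.5 and 36.6, 7.92, 9.60 and 8.71 in P14 replicates 1 to 4. Apart from P14 replicate 1 the Stat2 values of both ages overlapped, and the gene was not called (log2 0.50, adjusted p = 0.423). Irf9, the DNA-binding part of ISGF3, was 13.2 to 15.1 FPKM at E17.5 and 34.7, 11.4, 11.6 and 9.45 at P14. Every P14 value but that of replicate 1 lay below the E17.5 values. The log2 difference of Irf9 was 0.05 with all libraries (adjusted p = 0.937), -0.15 with TPM values, and without P14 replicate 1 it fell by 0.36 (SE 0.0887, adjusted p = 0.0108). Irf1, a factor induced by interferon gamma, was 16.2 to 18.7 FPKM at E17.5 and 35.3, 16.2, 21.0 and 15.5 at P14. Its groups overlapped (log2 0.24, adjusted p = 0.484).

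Among the antiviral effectors, the 3 IFIT genes that passed the filter behaved differently from each other. IFIT proteins bind viral RNA, and their genes form a cluster on chromosome 19. Ifit1 (GRCm39, chromosome 19, 34618289 to 34627409, plus strand) measured 0.869, 0.72, 0.9996 and 0.628 FPKM at E17.5 and 107, 3.10, 12.3 and 5.17 in P14 replicates 1 to 4. All P14 libraries lay above all E17.5 libraries, with replicate 1 far above the other 3. Ifit1 rose by a log2 fold change of 2.94 (SE 0.912, adjusted p = 0.0491), and by 1.95 (SE 0.361, adjusted p = 0.00403) without P14 replicate 1. The call was lost, at adjusted p = 0.0573 to 0.114, without any single E17.5 library and without P14 replicate 3 or 4. Ifit3 lies on the same strand at 34560519 to 34566382 and measured 0.934, 1.14, 1.89 and 0.806 FPKM at E17.5 and 7.16, 2.05, 2.91 and 1.99 at P14. The Ifit3 groups did not overlap, yet the gene was not called with all libraries (log2 0.94, SE 0.331, adjusted p = 0.0729). Without P14 replicate 1 it was (log2 0.61, SE 0.181, adjusted p = 0.0224). Ifit2, at 34527961 to 34553934, was 4.48, 5.93, 6.64 and 5.26 FPKM at E17.5 and 5.13, 5.17, 5.07 and 5.15 at P14. The P14 libraries were thus almost alike for Ifit2 (5.13 ± 0.0453, SD, n = 4), P14 replicate 1 included, and the ages overlapped (log2 -0.09, adjusted p = 0.61). Ifit3b stayed under 1 FPKM in every library and was not tested. Since Ifit3 and Ifit3b are near-identical copies, reads may have been split between them. The sources used here do not say whether reads were counted by strand, and the table's Ifit1bl1 locus overlaps both Ifit1 and Ifit3b on the other strand. That gene measured 0.0981 to 0.298 FPKM at E17.5 and 9.24, 0.327, 1.34 and 0.443 at P14.

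Of the other effectors, 1 was called, and it was lower at P14. Ifitm1, which encodes a small membrane protein that blocks the fusion of entering viruses, lies on chromosome 7 at 140547342 to 140549740. It measured 90.8, 83.6, 77.8 and 79.1 FPKM at E17.5 and 16.8, 23.5, 36.0 and 31.1 at P14. All 4 P14 libraries lay below all 4 E17.5 libraries, with P14 replicate 1 lowest. Ifitm1 fell from 82.8 ± 5.86 to 26.8 ± 8.48 FPKM (SD, n = 4), a log2 fold change of -1.64 (SE 0.22, adjusted p = 0.00248), and of -1.44 (SE 0.135, adjusted p = 9.84e-05) without P14 replicate 1. Ifitm3, its relative with the highest level of all 39 genes, was 246, 235, 269 and 285 FPKM at E17.5 and 101, 248, 214 and 229 at P14. Here only P14 replicate 1 stood far off, and the gene was not called with it (log2 -0.46, adjusted p = 0.246) or without it (log2 -0.17, adjusted p = 0.168). In TPM without P14 replicate 1 it was called lower (log2 -0.24, adjusted p = 0.046). Bst2, or tetherin, which holds budding virus on the cell surface, was 41.7 to 57.7 FPKM at E17.5 and 68.5, 35.3, 41.7 and 42.1 at P14. Its groups overlapped with all libraries (log2 -0.17, adjusted p = 0.578), and without P14 replicate 1 it was called lower (log2 -0.36, SE 0.121, adjusted p = 0.0348). Eif2ak2, the kinase PKR that stops translation on sensing double-stranded RNA, was 4.43 to 6.51 FPKM at E17.5 and 13.3, 4.57, 4.77 and 4.31 at P14 (adjusted p = 0.843).

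The remaining effectors were low. Rsad2, or viperin, was 0.482 to 1.13 FPKM at E17.5 and 6.20, 0.551, 0.987 and 0.249 in P14 replicates 1 to 4, so that P14 replicate 1 alone exceeded the E17.5 range. Mx1 and Mx2, dynamin-like GTPases against influenza and related viruses, are given the biotype transcribed pseudogene in the deposited table. Mx1 was at most 0.626 FPKM in any library, and Mx2 was 0.99 to 1.79 at E17.5 and 0.765 to 1.34 at P14 (log2 -0.26, adjusted p = 0.242). Isg20, an exonuclease, lay between 0.372 and 0.813 FPKM in all libraries. Ifit3b, Isg20, Rsad2, Mx1 and Oas3 are the 5 members under the filter, with 2 to 329 reads per library, and they were not tested with the rest. All P14 values of Ifit3b (0.383 to 0.99 FPKM) lay above its E17.5 values (0.0516 to 0.354), on 2 to 31 reads a library. All P14 values of Mx1 (0.061 to 0.37 FPKM) lay below its E17.5 values (0.4096 to 0.626), on 3 to 32 reads.

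Genes of the OAS family make or resemble enzymes whose product, 2-5A, switches on the ribonuclease RNase L. Oas2 (chromosome 5, 120868398 to 120887949, minus strand) measured 1.08, 1.27, 1.84 and 1.09 FPKM at E17.5 and 0.216, 0.319, 0.373 and 0.353 at P14. The groups did not overlap and P14 replicate 1 was the lowest of all. Oas2 fell from 1.32 ± 0.359 to 0.315 ± 0.0698 FPKM (SD, n = 4; log2 -0.81, SE 0.126, adjusted p = 0.00422), a low level at which the pseudocount of 1 understates the change. Oasl1 went the opposite way, with 1.06, 1.25, 1.23 and 0.488 FPKM at E17.5 and 19.4, 1.26, 2.43 and 1.80 at P14. Its lowest P14 library lay barely above its highest E17.5 library, and it was not called (log2 1.21, SE 0.646, adjusted p = 0.20). Oas1a was 2.46 to 4.36 FPKM at E17.5 and 26.2, 3.19, 4.70 and 2.03 at P14. Without P14 replicate 1 the Oas1a difference was 0.03 (adjusted p = 0.929). Oasl2 was 8.01 to 11.5 FPKM at E17.5 and 37.9, 11.0, 11.9 and 8.90 at P14, likewise far higher in P14 replicate 1 than elsewhere (log2 0.12, adjusted p = 0.477, without it). Oas3 was under 0.4 FPKM in every library.

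ISG15 is a ubiquitin-like protein that is attached to other proteins, USP18 removes it and dampens signalling at the type I receptor, and TRIM25 is a ligase for ISG15 and for the sensor RIG-I. None of the 3 genes was called in limma with all libraries or without P14 replicate 1, and with all libraries none was called in voom or at an unadjusted p under 0.05. Isg15 was 7.93, 8.91, 7.81 and 4.45 FPKM at E17.5 and 25.6, 6.67, 11.2 and 5.39 at P14. Usp18 was 1.93 to 2.71 FPKM at E17.5 and 8.74, 1.80, 1.78 and 1.95 at P14. Trim25 was 17.4 to 21.0 FPKM at E17.5 and 34.1, 16.1, 18.04 and 16.9 at P14. In each of the 3, P14 replicate 1 was the highest library and at least 1 of the other P14 libraries lay inside the E17.5 range.

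The 3 sensors of foreign or misplaced nucleic acid were each highest in P14 replicate 1, and none was called with all libraries in limma, in voom or at an unadjusted p under 0.05. Ifih1 encodes MDA5, a detector of long double-stranded RNA, and was 3.21, 3.13, 4.46 and 4.11 FPKM at E17.5 and 9.40, 1.72, 2.70 and 1.99 at P14. P14 replicate 1 was above all E17.5 libraries and the other 3 P14 libraries were below them. The log2 difference was -0.16 (adjusted p = 0.798) with all libraries, and without P14 replicate 1 Ifih1 fell by 0.59 (SE 0.147, adjusted p = 0.0104). Dhx58, or LGP2, which tunes MDA5 and RIG-I, was 1.44 to 2.21 FPKM at E17.5 and 7.76, 1.22, 2.19 and 1.98 at P14 (adjusted p = 0.473). Zbp1, a sensor of Z-form nucleic acid that can start cell death, was 1.13 to 1.83 FPKM at E17.5 and 2.87, 0.862, 1.93 and 1.04 at P14 (adjusted p = 0.912).

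The interferon-inducible GTPases, which attack vacuoles that hold bacteria or parasites and are classical targets of interferon gamma, had 4 of 6 members called lower, where 15% of all tested genes were. Without a single E17.5 library or P14 replicate 4, with no filter on low values and in voom, 3 of the 6 were called lower. With the replicate number as a block, 2 of the 6 were. Of the GTPase genes outside this list, Gbp8 was called lower (log2 -1.25). With all libraries, Gbp4 (log2 0.21), Gbp5 (-0.22), Gbp6 (0.04), Gbp9 (-0.24), Irgm2 (0.03), Tgtp1 (-0.35), Tgtp2 (0.14) and Ifi47 (-0.09) were not called. Without P14 replicate 1, Ifi47 was called lower (log2 -0.50). The fall was thus not shared by all tested GTPase genes. Iigp1, an immunity-related GTPase (IRG), measured 7.98, 9.15, 12.5 and 9.71 FPKM at E17.5 and 3.85, 4.51, 5.64 and 4.53 at P14. Gbp7, a guanylate-binding protein (chromosome 3, 142236097 to 142255912), measured 9.77, 13.4, 15.03 and 15.5 FPKM at E17.5 and 7.81, 5.34, 5.72 and 4.95 at P14. The groups did not overlap for either gene, and P14 replicate 1 was the lowest P14 library for Iigp1 and the highest for Gbp7. Iigp1 fell by 0.94 on the log2 scale (SE 0.156, adjusted p = 0.0052). Gbp7 fell by 1.05 (SE 0.18, adjusted p = 0.00591), and by 1.17 (SE 0.147, adjusted p = 0.000409) without P14 replicate 1. Irgm1, a regulator of the other IRGs (chromosome 11, 48756072 to 48762247), was 11.6, 11.7, 15.6 and 13.0 FPKM at E17.5 and 8.72, 9.40, 8.53 and 8.24 at P14. All 4 P14 libraries were close together and below E17.5. Irgm1 fell by 0.52 (SE 0.116, adjusted p = 0.0163), and by 0.52 as well without P14 replicate 1. Gbp3 (chromosome 3, 142265781 to 142278974) was 6.70, 6.06, 6.88 and 6.77 FPKM at E17.5 and 4.22, 5.15, 5.16 and 4.58 at P14. The groups did not overlap, and Gbp3 fell by 0.40 (SE 0.101, adjusted p = 0.0251). The call was lost, at adjusted p = 0.0502 to 0.0832, without any single E17.5 library or without P14 replicate 4.

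Gbp2 lies in the same cluster, at 142326424 to 142343769 on the same strand, and did not follow it. It was 11.2, 11.2, 11.2 and 13.1 FPKM at E17.5 and 7.67, 15.8, 15.9 and 15.2 at P14. P14 replicates 2 to 4 lay above every E17.5 library and P14 replicate 1 lay below every one. The log2 difference was 0.16 with all libraries (adjusted p = 0.624) and -0.02 with TPM values, and without P14 replicate 1 Gbp2 rose by 0.39 (SE 0.0782, adjusted p = 0.00372). Igtp, another regulatory IRG, was 5.49 to 7.74 FPKM at E17.5 and 8.46, 6.59, 7.17 and 6.41 at P14 (adjusted p = 0.496). Beside these values, 9 macrophage markers summed to 343 to 396 FPKM at E17.5 and 145 to 222 at P14, with 6 of 9 lower in every P14 library. The 6 endothelial markers summed to 415 to 461 and 143 to 316, with 5 of 6 lower in every P14 library. The 10 T and NK cell markers summed to 6.36 to 7.57 and 2.90 to 28.4, with none lower in every P14 library. The 5 plasmacytoid dendritic markers summed to 6.06 to 8.01 and 1.97 to 3.14, with 2 of 5 lower and 1 of 5 higher in every P14 library. Only 2 of these 5 passed the filter on low values. No marker of these lists was at 0 in all libraries. The part of these cells in the fall of the 4 GTPase genes was not tested.

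Of the 6 remaining members, 2 rose and 1 fell. Ifi27, which encodes a small protein of mitochondria and nucleus (chromosome 12, 103400448 to 103406504), measured 22.4, 20.6, 18.9 and 18.2 FPKM at E17.5 and 80.4, 49.4, 42.8 and 42.7 at P14. All P14 libraries exceeded all E17.5 libraries, with P14 replicate 1 highest. Ifi27 rose by 1.34 on the log2 scale (SE 0.206, adjusted p = 0.00422), and by 1.13 (SE 0.093, adjusted p = 5.58e-05) without P14 replicate 1. The locus of Ifi27l2a overlaps Ifi27 on the other strand, at 6.08 to 7.62 FPKM at E17.5 and 6.86 to 11.6 at P14. Ifi35 (chromosome 11, 101339238 to 101349527), the partner of NMI in a cytoplasmic complex, was 14.2, 13.3, 13.4 and 13.5 FPKM at E17.5 and 38.4, 20.5, 20.8 and 18.4 at P14. Its groups did not overlap. Ifi35 rose by 0.74 (SE 0.215, adjusted p = 0.0389), and by 0.51 (SE 0.0712, adjusted p = 0.000656) without P14 replicate 1. Its call was lost, at adjusted p = 0.0528 to 0.0992, without any single E17.5 library or without P14 replicate 2 or 3. Ifi44, a cytoplasmic antiviral protein (chromosome 3, 151436559 to 151455580), was 2.22, 2.45, 4.32 and 2.71 FPKM at E17.5 and 0.789, 1.31, 0.904 and 1.41 at P14. The groups did not overlap and Ifi44 fell by 0.88 (SE 0.186, adjusted p = 0.0132).

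Rtp4, a chaperone of membrane receptors, was 3.38 to 5.86 FPKM at E17.5 and 20.4, 3.87, 4.78 and 2.63 at P14 (adjusted p = 0.551). Parp14, which attaches ADP-ribose to proteins, was 4.58 to 7.81 FPKM at E17.5 and 15.9, 5.57, 6.14 and 5.13 at P14 (adjusted p = 0.54). For both genes P14 replicate 1 alone lay above the E17.5 range. Xaf1, which binds the apoptosis inhibitor XIAP, was 2.69, 2.58, 6.61 and 2.83 FPKM at E17.5 and 5.04, 3.11, 2.56 and 2.45 at P14. Its highest value was in E17.5 replicate 3, and the groups overlapped (adjusted p = 0.851).

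Read apart, P14 replicate 1 held more of most of these genes than the rest of its group. A single library has no replicate, so its ratios are a description with no test. It was above all other P14 libraries in 24 of 34 tested members (70.6%), against 44.5% of all tested genes. In TPM the numbers were 22 of 34 (64.7%) against 24.3%. It was at least 2 times the mean of P14 replicates 2 to 4 in 18 of 34 (52.9%), against 15.7% of all tested genes, and in TPM in 15 of 34 (44.1%) against 8.93%. The median ratio was 2.01 over the members and 1.02 over all genes, or 1.43 and 0.728 in TPM. The largest ratios were 15.6 for Ifit1, 10.7 for Irf7, 10.6 for Oasl1 and 7.93 for Oas1a, which in TPM came to 11.0, 7.57, 7.52 and 5.62. All 4 transcription factors, all 3 genes of the ISG15 system, all 3 sensors and 3 of 4 tested OAS genes were at least 2 times higher in it, in TPM 3, 2, 2 and 3 of them. None of the 6 GTPases was, and Gbp2 at 0.49 and Ifitm3 at 0.438 were the members at under 0.5 of the mean. Leaving this library aside, the median ratio of P14 to E17.5 was 0.903 over the members and 0.980 over all tested genes.

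**Figure D3:**
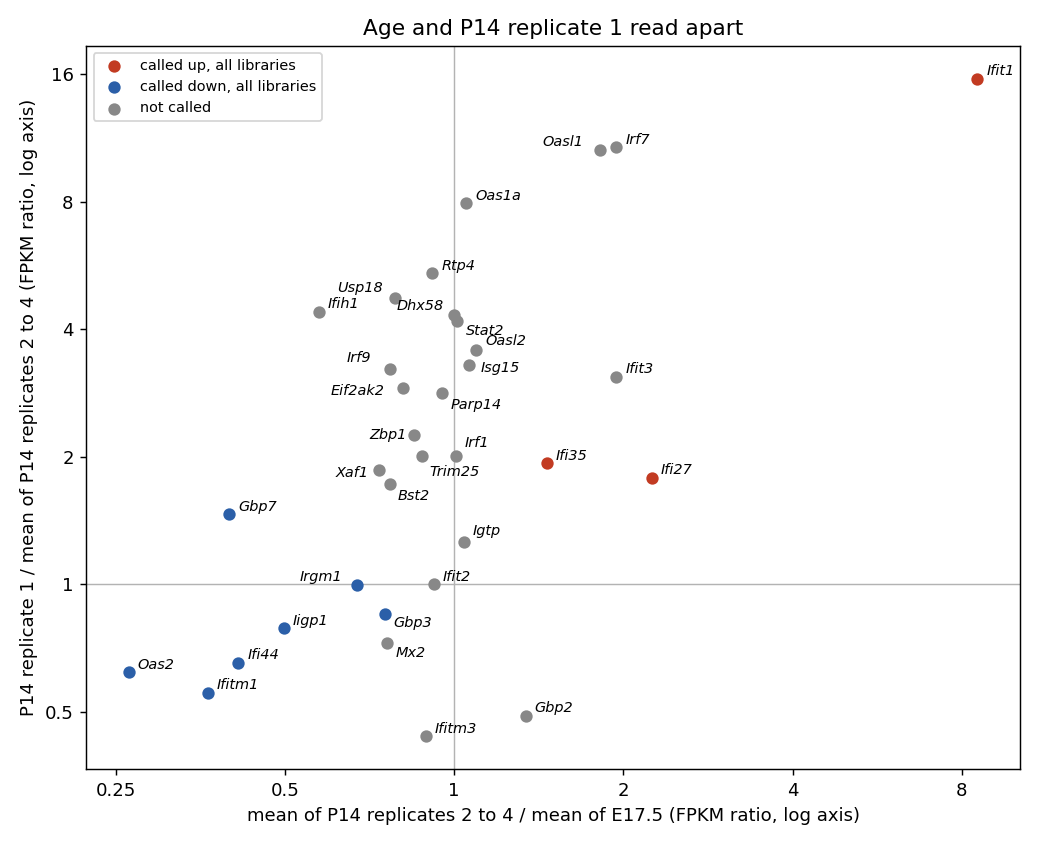
Ratio of the mean FPKM of P14 replicates 2 to 4 to that of E17.5 (horizontal, log axis) against the ratio of P14 replicate 1 to the mean of P14 replicates 2 to 4 (vertical, log axis), 1 point per tested gene, coloured by its call with all libraries. Ifit1 is far out on both axes, Irf7, Oasl1 and Oas1a mainly on the vertical one, and the genes called lower lie left of 1 with ratios near or under 1 on the vertical axis, apart from Gbp7.

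The P14 libraries also differed among replicates 2 to 4, and for some members in the order of the epithelial markers. Set against P14 replicate 1, the summed epithelial markers were 2.53%, 13.9% and 4.996% in replicates 2, 3 and 4. Ifit1 stood at 2.90%, 11.5% and 4.83%, Irf7 at 5.24%, 16.4% and 6.33%, and Oasl1 at 6.48%, 12.5% and 9.27%. The order of these 3 genes over the P14 libraries was that of the markers, replicate 1, then 3, 4 and 2. It was found in 8 of 34 tested members (23.5%) and in 13.8% of all tested genes. This order requires replicate 1 to be highest, which held in 24 members and in 6252 of all tested genes. Among those, 8 of the 24 members and 1945 of the 6252 genes had the order, which are similar shares. Other genes high in P14 replicate 1 were level among the rest, such as Usp18 at 20.6%, 20.4% and 22.3% and Eif2ak2 at 34.5%, 36.0% and 32.5%. Ifit2 stood at 101%, 98.7% and 100.4%. The part of epithelial cells in these values was not tested. The B and plasma cell markers, 10 genes, summed to 410.01, 261, 228 and 569 FPKM in P14 replicates 1 to 4. The part of these cells was not tested either.

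**Figure D4:**
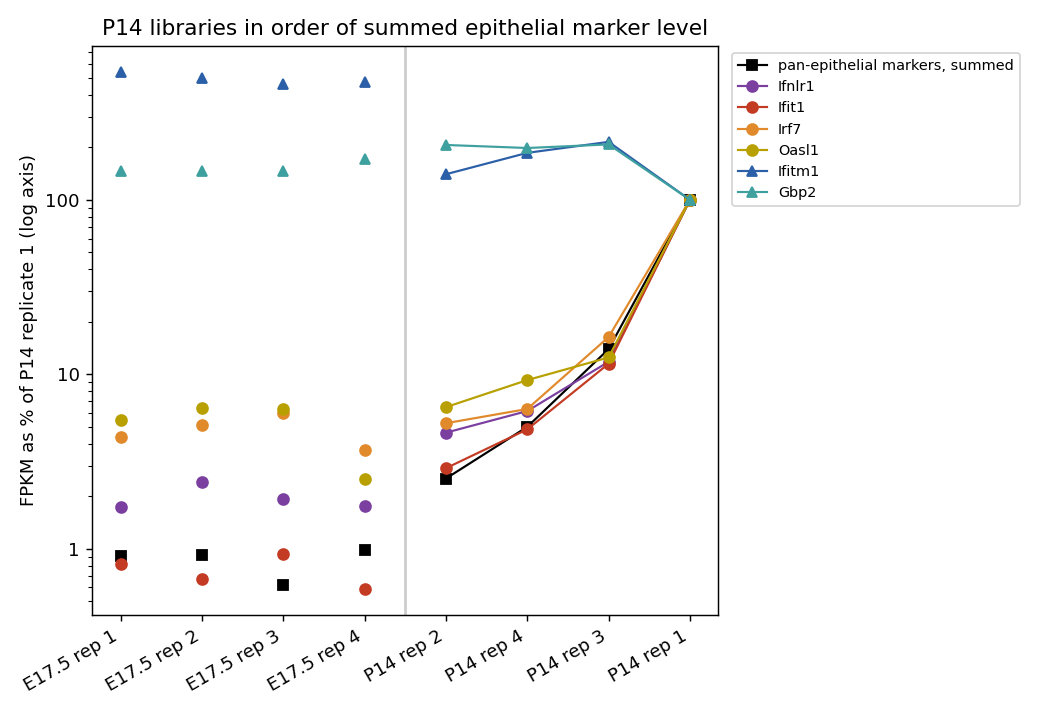
FPKM as a percentage of P14 replicate 1 (log axis) in each library, for the 14 pan-epithelial markers summed, 3 members with the markers' order (Ifit1, Irf7, Oasl1), the lambda receptor gene Ifnlr1, and Ifitm1 and Gbp2. With the P14 libraries in order of the marker sum, Ifit1 goes from 2.90% to 100% while Gbp2 stays between 198% and 208% in replicates 2 to 4.

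The interferons themselves were almost absent from the libraries. Of 21 ligand genes in the table, 15 had no read in any library, Ifnb1 among them, and no ligand had more than 7 reads in a library. No read in a library allows up to 3 reads at this depth, counting error only. The lambda gene Ifnl2 had 5 reads in P14 replicate 1 (exact Poisson 95% interval 1.62 to 11.7) and none in the other 7 libraries. The receptor chain Ifnlr1 was not tested, since only 3 libraries reached 1 FPKM. Its reads were 23, 29, 25 and 24 in E17.5 replicates 1 to 4 and 964, 58, 152 and 81 in P14 replicates 1 to 4, or 0.299 to 0.416 FPKM and 17.1, 0.793, 2.02 and 1.06 FPKM. The order of Ifnlr1 over the P14 libraries was that of the epithelial markers, which 13.8% of all tested genes had. Its ratio in replicate 1 was 13.3 (9.38 in TPM). The part of epithelial cells in these values was not tested.

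None of the 8 tested receptor and kinase genes was called with all libraries in limma (1, Jak1, at an unadjusted p under 0.05 and in voom). All 8 were highest among the P14 libraries in replicate 1, or 5 in TPM, where 44.5% and 24.3% of all tested genes were. Ifnar1 was 16.3 to 17.503 FPKM at E17.5 and 25.1, 10.8, 12.3 and 11.1 at P14, and without P14 replicate 1 it fell by 0.53 (adjusted p = 0.000612). Ifnar2 was 6.82 to 8.18 FPKM at E17.5 and 10.4, 6.01, 7.54 and 6.66 at P14. Ifngr1, the most abundant of the list, was 38.4 to 44.1 FPKM at E17.5 and 87.5, 24.6, 41.9 and 33.2 at P14. Ifngr2 was 27.8 to 32.0 FPKM at E17.5 and 108, 21.99, 32.1 and 29.4 at P14. For each of these 4 chains P14 replicate 1 was above the other 7 libraries in FPKM, as it was for 33.9% of all tested genes. In TPM it was not above all E17.5 libraries for Ifnar1 and Ifnar2.

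None of the 6 tested STAT and IRF genes outside the 39 was called with all libraries in limma, in voom or at an unadjusted p under 0.05. Stat3, the most abundant of them, was 33.0 ± 0.518 FPKM at E17.5 and 42.0 ± 13.3 at P14 (SD, n = 4).

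Upstream of interferon production, 4 of 14 tested genes fell and none was called higher in limma, where 15% and 9.72% of all tested genes were called lower and higher. An unadjusted p under 0.05 was reached by 5 of the 14. In voom 2 were called lower, Tlr7 and Sting1, and 1 higher, Mavs. Without P14 replicate 1 limma called 6 lower and 2 higher, where 26.9% and 22.6% of all genes were. Tlr7, an endosomal receptor for single-stranded RNA, was 1.60, 1.44, 2.60 and 1.96 FPKM at E17.5 and 0.722, 0.764, 0.811 and 0.756 at P14 (log2 -0.70, SE 0.136, adjusted p = 0.00938). It passed the filter only through its E17.5 values. Sting1, the adaptor of cytosolic DNA sensing, fell from 12.5 ± 0.93 to 7.51 ± 1.35 FPKM (SD, n = 4; log2 -0.68, SE 0.133, adjusted p = 0.00968). Cgas, the DNA sensor that activates STING, fell from 2.92 ± 0.407 to 1.88 ± 0.37 FPKM (log2 -0.45, adjusted p = 0.0421). Without E17.5 replicate 2, 3 or 4 or P14 replicate 3 or 4, Cgas was not called (adjusted p = 0.0881 to 0.12). Tlr3, an endosomal receptor for double-stranded RNA, fell by 0.44 on the log2 scale (SE 0.126, adjusted p = 0.0386) and was called again when P14 replicate 1 was left out, but not when any other library was (adjusted p = 0.0537 to 0.113). Myd88, an adaptor of Toll-like receptors and the most abundant gene of the list, was 20.6 ± 0.965 and 18.5 ± 2.07 FPKM. Ddx58, the gene of RIG-I, was 7.74 to 9.44 FPKM at E17.5 and 22.6, 6.18, 7.57 and 6.26 at P14 (log2 0.13, adjusted p = 0.822). Without P14 replicate 1 it fell by 0.28 (adjusted p = 0.0452).

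Of 11 tested negative regulators, Samhd1, which breaks down nucleotides and limits interferon induction, fell from 23.7 ± 0.635 to 15.6 ± 2.71 FPKM (SD, n = 4; log2 -0.59, SE 0.127, adjusted p = 0.0142). No other was called with all libraries in limma, where 15% and 9.72% of all tested genes were called lower and higher. Voom also called Pias1 lower, 2 of 11, where 15.05% of all tested genes were. Without P14 replicate 1 limma called 4 of 11 lower, Samhd1, Pias1, Ptpn2 and Socs3, where 26.9% of all tested genes were. It called 1 of 11 higher, Irf2bp1, where 22.6% of all tested genes were. Irf2bp2, the most abundant, was 27.9 ± 2.80 and 31.5 ± 6.21 FPKM. Of 63 other tested ISGs, 3 rose (4.76%, against 9.72% of all tested genes) and 9 fell (14.3%, against 15%). Without P14 replicate 1, 11 rose (17.46%, against 22.6%) and 13 fell (20.6%, against 26.9%), shares under those of all genes. Ifi27l2b was at most 0.0935 FPKM at E17.5 and 192, 2.41, 33.98 and 13.1 in P14 replicates 1 to 4. This was the order of the epithelial markers, which 13.8% of all tested genes had. Ifi27l2b passed the filter only through its P14 values (log2 4.51 of FPKM + 1, SE 1.06, adjusted p = 0.0193). It was not called without E17.5 replicate 2, 3 or 4 or P14 replicate 3 (adjusted p = 0.0524 to 0.0572). Oas1c rose by 0.74 (SE 0.101, adjusted p = 0.00263), and it too passed the filter only through P14. Sp100, a nuclear body protein, rose by 0.60 (SE 0.143, adjusted p = 0.0197). Without E17.5 replicate 1, 2 or 4 or P14 replicate 4, Sp100 was not called (adjusted p = 0.0533 to 0.0561). The largest decreases were those of Ifi204 (log2 -1.34, adjusted p = 0.00104) and Ifi207 (log2 -1.24, adjusted p = 0.00395), which belong to a family of DNA-binding proteins, and Gbp8 (log2 -1.25, adjusted p = 0.00181). Ifitm2, the most abundant, was 109 ± 17.54 FPKM at E17.5 and 135 ± 39.5 at P14 and was called higher only without P14 replicate 1 (log2 0.51, adjusted p = 0.0115). Over all 102 tested genes of these lists, P14 replicate 1 was above the other P14 libraries in 68, or 48 in TPM, where 44.5% and 24.3% of all tested genes were. In FPKM it was at least 2 times their mean in 39, where 15.7% of all tested genes were. The median ratio over the 102 genes was 1.595, or 1.132 in TPM, against 1.02 and 0.728 over all tested genes.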

How the data were processed

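Each gene had 1 FPKM value per library in the table deposited by the authors. Per the submitters' processing notes, the tools were fastp, HISAT2, featureCounts, CASAVA and DESeq2 1.20.0, on the build GRCm39. The step that made the FPKM, and the use of strand in counting, are not given in the sources used here. FPKM times gene length gave whole multiples of 1 step in every library for 100% of values (tolerance 1e-06), which recovered the reads. The 302 loci with no gene name took 0.183% to 0.246% of reads.

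The 14044 genes that reached 1 FPKM in 4 or more of the 8 libraries were compared as log2(FPKM + 1), using limma 3.58.1 and statmod 1.5.0 in R 4.3.3 with intensity trend and robust moderation, two-sided. The p-values from limma were adjusted by Benjamini-Hochberg across the 14044 genes and called below 0.05, and fold changes of low genes are understated by the pseudocount. The fit was tested on reads simulated from the E17.5 means, with changes placed in genes of mean FPKM 5 or more. That simulation held no outlying library. It therefore does not show how the fit behaves with P14 replicate 1 or for lower genes. Groups came from the sample labels, and E17.5 is the protocol's age. All 39 members are described. Of each list of other pathway genes, the text names Ddx58 and the receptor chains, up to 3 called genes per direction with the largest change and the most abundant tested gene. Tlr3 completes a count of 4. Jak1, Mavs, Pias1, Ptpn2, Socs3, Irf2bp1, Ifit1bl1, Ifit1bl2, Ifi27l2a, Ifnl2 and 3 Trim genes were chosen after their values were seen. So were the GTPase genes outside the 39, apart from Gbp8. Of 142 listed pathway genes 141 matched, and 1 item that the rule names is not reported here. Members and lists were chosen with earlier results of these data known. Alternatives were a pseudocount of 0.1, no filter, a minimum of 5 FPKM, TPM, median-of-ratios scaling, voom on the recovered reads, a replicate block and leaving out each library. Promoters are RefSeq's on GRCm38.p6, so their coordinates differ from the table's GRCm39. Intervals and limits cover counting error only. 12 of the 39 loci overlap another locus on the opposite strand, and values of near-identical copies (Ifit3 and Ifit3b, and the Gbp and Oas genes) are uncertain.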

Additional observations from a re-analysis of the deposited data

Results flagged for a closer look

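Of 78 groups of 4 libraries (39 genes at 2 ages), 21 held a library whose gap to the nearest other library was above Dixon's 95% critical share of the group's range. For independent groups, chance gives about 1 in 20. The 39 genes share the same libraries, so their groups are not independent. The rule was not applied to all tested genes. Among all tested genes, P14 replicate 1 was the highest P14 library in 44.5% and the lowest in 40.9%. In 16 of the 21 flagged groups the outlying value was the highest at P14 and came from P14 replicate 1, the library with the most epithelial marker RNA. The P14 replicate 1 values were 89.25 FPKM for Irf7, 34.75 for Irf9 and 36.62 for Stat2 among the transcription factors. For the effectors they were 106.9 for Ifit1, 6.197 for Rsad2 and 13.26 for Eif2ak2. For the OAS family they were 26.21 for Oas1a, 19.43 for Oasl1 and 37.88 for Oasl2. Usp18 stood at 8.736, Trim25 at 34.06, Ifih1 at 9.401 and Dhx58 at 7.762. Of the others, Rtp4 stood at 20.41, Ifi35 at 38.38 and Parp14 at 15.9 FPKM.

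By this rule, Gbp2 was the gene flagged for a low value in P14 replicate 1, at 7.667 FPKM. At E17.5, replicate 3 lay far above its group for Mx1 (0.6257 FPKM), Rtp4 (5.856) and Xaf1 (6.608), and replicate 4 for Gbp2 (13.13).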

How the results depend on the processing

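Leaving out each library in turn gave 617 to 3176 genes higher and 1118 to 3782 lower at P14 among all tested genes, 1 to 5 and 6 to 10 among the members, and 1 to 14 and 11 to 26 among the other pathway genes (3 and 14 with all libraries). In each case the highest numbers were those without P14 replicate 1. Without a filter 1 member was called higher, and with a minimum of 5 FPKM 0 and 5 pathway genes were called. Of all tested genes, 1365 and 2108 were called with all libraries, 899 and 2678 in TPM and 894 and 2114 with voom. TPM without P14 replicate 1, chosen after seeing the data, gave 2741 and 4387 of all genes, 5 and 11 members (Ifitm3 added), and 10 and 27 pathway genes. No member called with all libraries changed direction under any alternative, and 131 of their 157 values kept the call. Ifitm1, Gbp7, Iigp1, Oas2, Ifi44 and Ifi27 kept it wherever they were tested. Without a filter, Ifit1 (adjusted p = 0.0994), Ifi35 (0.0805) and Gbp3 (0.0518) lost the call, and with voom Ifit1 (0.0808) and Gbp3 (0.0543) did. The cause was not tested.

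With the replicate number as a replicate block, 695 and 1049 of all genes, 1 and 5 members, and 2 and 9 pathway genes were called, Ifit1 (adjusted p = 0.0699), Ifi35 (0.065), Gbp3 (0.0932) and Irgm1 (0.0657) losing the call. Same-numbered libraries did not deviate together (correlations -0.033, 0.00947, -0.0641 and -0.0492), so the numbers give no pairing.

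Members that were not called changed sign as follows, in log2. With TPM these were Eif2ak2 -0.088, Gbp2 -0.0201, Igtp -0.043, Irf9 -0.15, Trim25 -0.13 and Zbp1 -0.13. With voom they were Irf9 -0.056, Trim25 -0.032 and Zbp1 -0.0803. With TPM and P14 replicate 1 left out they were Dhx58 -0.075, Eif2ak2 -0.34, Igtp -0.0057, Irf1 -0.071, Irf9 -0.44, Isg15 -0.0026, Oas1a -0.036, Parp14 -0.12, Rtp4 -0.19, Stat2 -0.052, Trim25 -0.25, Usp18 -0.35 and Zbp1 -0.28. Leaving out single libraries, the ranges that crossed 0 were -0.00945 to 0.65 for Dhx58, -0.24 to 0.23 for Eif2ak2, -0.59 to 0.052 for Ifih1, -0.00139 to 0.38 for Irf1, -0.36 to 0.24 for Irf9, -0.047 to 0.44 for Parp14, -0.10 to 0.75 for Rtp4, -0.18 to 0.17 for Trim25, -0.23 to 0.37 for Usp18, -0.26 to 0.18 for Xaf1 and -0.16 to 0.20 for Zbp1. The lowest of each range was without P14 replicate 1. Depth limits Ifit3b, Isg20, Rsad2, Mx1 and Oas3, with 2 to 329 reads per library.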

Other observations

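Ifit1bl2, an Ifit1-like gene on the opposite strand, lies 125 bases before Ifit1 in the deposited table. In FPKM it measured 120.2, 1.08, 6.501 and 2.004 over P14 replicates 1 to 4, and no more than 0.281 in any E17.5 library. Ifit1bl2 had the P14 order of Ifit1 and of the epithelial markers, replicate 1, then 3, 4 and 2, as did 13.8% of all tested genes. Its ratio of replicate 1 to the mean of the others was 37.6. It was not called with all libraries (log2 2.99, adjusted p = 0.0931) and was called higher without P14 replicate 1 (log2 1.72, adjusted p = 0.00924), both in limma. It passed the filter only through its P14 values.

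Trim12a, Trim30d and Trim34a, which lie on chromosome 7, were low in P14 replicate 3 alone. Trim12a was 2.72 to 3.17 FPKM at E17.5 and 4.84, 2.23, 0 and 3.59 in P14 replicates 1 to 4. Trim30d was 2.09 to 3.70 and 8.75, 3.49, 0.0137 and 3.37. Trim34a was 2.18 to 3.62 and 6.32, 2.81, 0.243 and 4.50.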
